A study of Mus musculus with 2 samples.

Results

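The Schlafen family was followed in macrophages, monocytes and other sorted cells of injured mouse muscle through 5 genes, Slfn1, Slfn2, Slfn4, Slfn5 and Slfn8. They were chosen by family name, with earlier results of these data known, and all 5 were among the 13289 genes listed in the count tables of both libraries. The 2 other Schlafen genes listed in both, Slfn3 and Slfn9, are described apart from them. The Gata3KO library came from C57BL/6 mice labelled Cx3cr1CRExGata3fl/fl, in which Cre driven from Cx3cr1, a gene of monocytes and macrophages, deletes floxed Gata3. The Wt library came from mice labelled C57BL/6, with no Cre or floxed allele named, so effects of Cre insertion, of background and of Gata3 loss cannot be told apart. Both groups received 50 µl of 10 µM cardiotoxin, a cobra venom protein that kills muscle fibres, in the tibialis anterior. Live CD45+ CD11b+ Ly6G- cells, myeloid cells without neutrophils, were sorted at day 4. The number, sex and age of the mice are not given in the labels. There was 1 library per genotype, so no difference below has a replicate check, and each interval covers counting error of UMIs (unique molecular identifiers, 1 per captured transcript) at the 95% level and nothing else.

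Schlafen genes encode cytoplasmic or nuclear proteins of immune cells, several of which bind or cleave transfer RNA, and many of them are induced by type I interferon. Type I interferon signals through the receptor chains Ifnar1 and Ifnar2 to a complex that includes Stat2 and Irf9 and binds the interferon-stimulated response element of target genes, while interferon gamma acts at gamma-activated sites. The mouse genes lie side by side on chromosome 11 and fall into short, intermediate and long proteins, of which only the long ones carry a helicase-like part. Slfn1 and Slfn2 are short, with longest coding sequences of 1011 and 1134 bases in the GENCODE annotation of GRCm38, Slfn4 is intermediate (1806 bases), and Slfn5 and Slfn8 are long (2652 and 2730 bases). Slfn1 slows the growth of T cells when overexpressed in mice, and Slfn2 keeps mouse T cells and monocytes quiescent. Slfn4 is a gene of myeloid cells and marks suppressive myeloid cells of the inflamed mouse stomach. Human SLFN5 is a nuclear protein that represses interferon-stimulated transcription, and Slfn8 is a long nuclear member of rodents.

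The genes are on GRCm38 at chr11:83116849-83122670 (Slfn1, plus strand), chr11:83065112-83070678 (Slfn2, plus), chr11:83175186-83190216 (Slfn4, plus), chr11:82951349-82964840 (Slfn5, plus) and chr11:83002158-83020810 (Slfn8, minus). Their promoters, 250 bases before to 50 after the start in RefSeq (GRCm38.p6), are shown because the genes moved together with interferon-inducible genes. They are set out in 2 groups, by whether an exact match to the searched response element core was found. Capitals in Slfn5 and Slfn8 mark the core of the interferon-stimulated response element, GAAA followed by any 2 bases and a second GAAA, searched on both strands. Capitals in Slfn1, Slfn2 and Slfn4 mark the longest run that these promoters share, which was picked after the sequences were seen. The windows are chr11:82951852-82952151 (Slfn5, plus), chr11:83020761-83021060 (Slfn8, minus, the first of 2 RefSeq starts), chr11:83116570-83116869 (Slfn1, plus), chr11:83064862-83065161 (Slfn2, plus) and chr11:83174936-83175235 (Slfn4, plus), each written 5′ to 3′ on the strand of its gene.
Slfn5: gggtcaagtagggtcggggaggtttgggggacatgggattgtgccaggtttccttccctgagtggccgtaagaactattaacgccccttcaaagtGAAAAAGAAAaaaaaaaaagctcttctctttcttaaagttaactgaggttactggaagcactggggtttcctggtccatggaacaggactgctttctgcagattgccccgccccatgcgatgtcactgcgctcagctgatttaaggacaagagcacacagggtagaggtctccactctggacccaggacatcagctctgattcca
Slfn8: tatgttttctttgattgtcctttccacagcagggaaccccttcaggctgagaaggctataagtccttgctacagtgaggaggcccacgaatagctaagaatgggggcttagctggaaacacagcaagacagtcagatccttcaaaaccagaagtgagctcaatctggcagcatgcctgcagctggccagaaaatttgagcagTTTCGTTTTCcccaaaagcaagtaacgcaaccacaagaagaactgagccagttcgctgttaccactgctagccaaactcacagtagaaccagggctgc
Slfn1: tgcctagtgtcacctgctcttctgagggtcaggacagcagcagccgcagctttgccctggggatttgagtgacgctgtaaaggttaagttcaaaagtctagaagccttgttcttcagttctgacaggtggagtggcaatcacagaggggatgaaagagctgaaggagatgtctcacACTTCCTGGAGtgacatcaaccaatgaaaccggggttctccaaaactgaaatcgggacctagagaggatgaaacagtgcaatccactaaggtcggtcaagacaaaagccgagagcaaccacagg
Slfn2: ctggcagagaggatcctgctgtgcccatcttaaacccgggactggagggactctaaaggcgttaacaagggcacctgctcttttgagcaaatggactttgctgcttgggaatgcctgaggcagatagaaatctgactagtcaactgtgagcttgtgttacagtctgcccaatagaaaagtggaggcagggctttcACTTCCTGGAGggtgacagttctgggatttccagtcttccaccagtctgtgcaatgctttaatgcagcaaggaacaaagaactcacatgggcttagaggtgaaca
Slfn4: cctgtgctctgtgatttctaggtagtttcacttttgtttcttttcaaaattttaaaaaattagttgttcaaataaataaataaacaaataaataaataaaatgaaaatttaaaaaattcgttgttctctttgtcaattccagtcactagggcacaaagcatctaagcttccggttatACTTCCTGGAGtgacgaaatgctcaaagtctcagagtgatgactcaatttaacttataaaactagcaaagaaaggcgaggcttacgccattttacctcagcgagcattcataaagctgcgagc

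The response element core was found in Slfn5 on the strand of the gene, from 155 bases before the start, and in Slfn8 on the opposite strand, from 48 bases before the start. It was held by 3.44% of the 32851 promoters of the same length in RefSeq. No exact match was found within these windows in Slfn1, Slfn2 or Slfn4. A core with a single base changed, such as aaaactgaaa in Slfn1 or tttcactttt in Slfn4, was not counted. The gamma-activated site TTCNNNGAA, which reads the same on both strands, was held by 8.3% of all promoters and had no match in the 5 windows. The run shared by Slfn1, Slfn2 and Slfn4 has 11 letters, ACTTCCTGGAG, lies 55 to 74 bases before their starts, and was held by 24 promoters in all (0.0731%). These are matches of letters and not binding sites, and no 2 of them overlap.

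The Gata3KO library held 3434 barcodes and 19422237 UMIs, and the Wt library 3290 barcodes and 15392330 UMIs, with 2 barcodes in common. The libraries stood apart in quality: mitochondrial genes took a median of 21.8% of UMIs per barcode in Gata3KO and 15.7% in Wt. Barcodes with 500 or more UMIs, 200 or more genes and no more than 10% mitochondrial UMIs were kept as cells, which gave 650 Gata3KO cells (18.9%) and 990 Wt cells (30.1%), with medians of 13716 and 5836 UMIs. Gata3 gave 8 UMIs in each whole library, too few to check the deletion, and it is not known whether its 3′ tag lies in the deleted part. Both libraries were clustered together, and clusters are called here by number and leading genes. Monocytes and macrophages were 403 Gata3KO and 409 Wt cells of cluster 1 (Gpnmb, Spp1, lipid-handling; 194 and 120 cells), cluster 2 (Ccl12, Ly6c2, Plac8, Cxcl9, monocyte-like; 40 and 230) and cluster 3 (Cxcl2, Gdf15, Hmox1; 169 and 59), so that cluster 1 and cluster 3 held most Gata3KO cells and cluster 2 most Wt cells. Levels are given in CPM, the UMIs of a gene per 1000000 UMIs of the unit. All 10 macrophage markers stood at 20 or more CPM in both libraries. Of the 10 neutrophil markers, 2 in Gata3KO and 1 in Wt stood at that level, and the 10 summed to 104 CPM in Gata3KO and 100.5 in Wt. Csf3r gave 66.9 CPM in Gata3KO and 86.8 in Wt, S100a8 10.6 and 2.97, and S100a9 0 and 0.685.

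In monocytes and macrophages all 5 Schlafen genes were lower in Gata3KO than in Wt, and 4 of them by at least 2-fold. Slfn1, the short member that slows T cell growth, gave 24.1 CPM in Gata3KO (interval 20.5 to 28.0, 166 UMIs), against 188 in Wt (175 to 201, 821 UMIs). Its log2 ratio of Gata3KO over Wt was -2.96 (-3.21 to -2.72), and only 0.323% of the 5890 genes compared lay lower. Slfn2, the quiescence gene, gave 358 CPM in Gata3KO (344 to 373) and 642 in Wt (618 to 666), a log2 ratio of -0.84 (-0.92 to -0.76), and it alone of the 5 stayed inside 2-fold. Slfn4, the myeloid member, gave 27.8 CPM in Gata3KO (24.0 to 32.0, 192 UMIs) and 151 in Wt (140 to 163, 662 UMIs), a log2 ratio of -2.44 (-2.68 to -2.21).

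The long members moved less than Slfn1 and Slfn4. Slfn5, whose human counterpart represses interferon-stimulated transcription, gave 150.4 CPM in Gata3KO (141 to 159.8) and 407 in Wt (388 to 426), a log2 ratio of -1.44 (-1.55 to -1.33). Slfn8 gave 36.2 CPM in Gata3KO (31.9 to 41.0) and 104 in Wt (94.4 to 114), a log2 ratio of -1.52 (-1.75 to -1.29). The intervals of Slfn5 and Slfn8 overlap, and neither reaches those of Slfn1 or Slfn4. The background was low: 236 of 5890 genes (4.01%) were at least 2-fold lower in Gata3KO, and the median log2 ratio of all genes was 0.047, against -1.52 over the 5 members. At 1.5-fold all 5 were lower (background 7.95%). The cell with the most UMIs held at most 9.04% of a member's UMIs in Gata3KO and at most 3.02% in Wt.

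**Figure D1:**
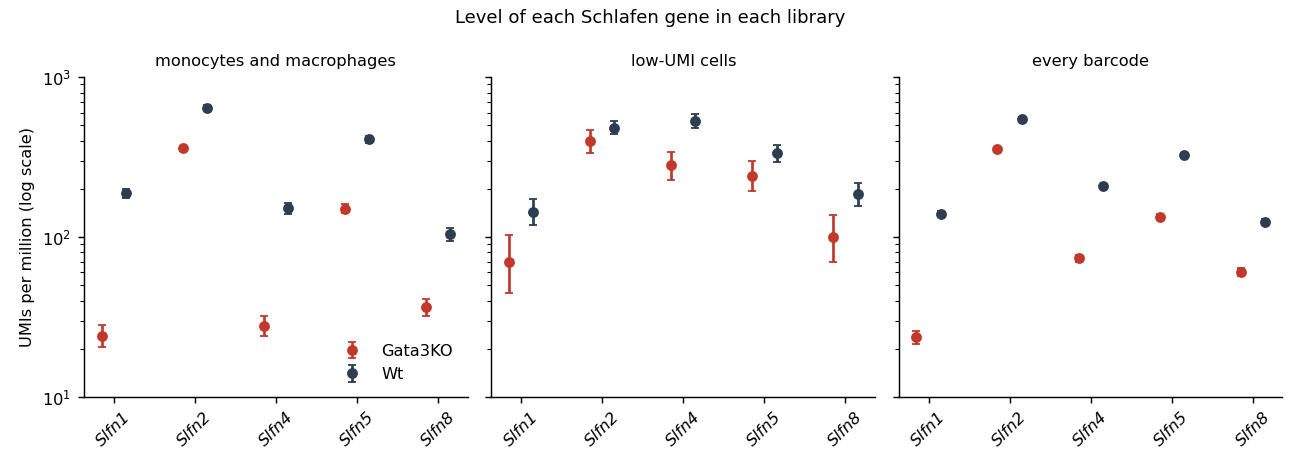
CPM (log axis) of each Schlafen gene in Gata3KO (red, left of each pair) and Wt (dark, right), in monocytes and macrophages, in low-UMI cells and over every barcode, with 95% counting intervals. All Gata3KO points lie under their Wt partners; the gap is widest for Slfn1 in monocytes and macrophages (24.1 against 188) and narrowest for Slfn2 in low-UMI cells (396 against 484).

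Markers of other states moved alongside. The summed level of the 9 monocyte markers was 1196 CPM in Gata3KO and 2032 in Wt (5 and 7 of 9 at 20 or more CPM), that of the 8 muscle markers 58.4 and 175, and that of the 7 mature dendritic cell markers 11.7 and 58.2. Lipid-handling macrophage markers were higher in Gata3KO, at 21610.0 CPM against 14410.0 in Wt, as were resident-like macrophage markers, at 1697 against 1019. The 6 nuclear and debris RNAs took 3.23% of UMIs in Gata3KO and 5.65% in Wt. Their part in the difference was not tested. With each cluster given the same weight in both libraries, the log2 ratio was -2.20 for Slfn1, -0.67 for Slfn2, -1.84 for Slfn4, -1.04 for Slfn5 and -1.08 for Slfn8. A share of all genes past 2-fold is not given for this weighting. Slfn5 (-0.64 and -0.55) and Slfn8 (-0.94 and -0.77) stayed inside 2-fold in clusters 1 and 2, and passed it in cluster 3 (-1.94 and -1.59). Within single clusters the difference varied widely in size. In cluster 3, led by the chemokine gene Cxcl2 and the stress genes Gdf15 and Hmox1, 4 of 5 members were at least 2-fold lower (background 5.63%). There Slfn1 gave 9.93 CPM in Gata3KO (30 UMIs) and 156 in Wt (134 UMIs), a log2 ratio of -3.97 (-4.60 to -3.39), and Slfn4 gave 17.5 and 162, a log2 ratio of -3.21 (-3.69 to -2.74). These sizes depended on how cells were grouped. At a finer resolution the state led by Cxcl2 and Gdf15 held 165 Gata3KO and 29 Wt cells, and all 5 differences were smaller. Slfn1 had a log2 ratio of -2.99 there (-3.78 to -2.22) and Slfn4 -2.42 (-3.08 to -1.76). Slfn5 had -1.20, Slfn2 -0.61 and Slfn8 -0.55 (-1.20 to 0.16). Another finer state, led by Hp, Plac8, Ly6c2 and Cxcl2, held 5 Gata3KO and 36 Wt cells. Slfn1 gave 133 CPM there in Gata3KO and 312 in Wt, and Slfn4 gave 83.1 and 278. How many of its cells belonged to cluster 3 is not given, and the part of such monocyte-like cells in the cluster 3 differences was not tested. In cluster 1, led by Gpnmb and Spp1, genes of lipid-handling macrophages, 2 of 5 were at least 2-fold lower (background 1.87%): Slfn1 at 15.8 in Gata3KO and 78.8 in Wt, and Slfn4 at 24.1 and 91.7.

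In cluster 2, which Ly6c2 and interferon-inducible genes lead, no member was 2-fold lower (0 of 5, background 5.92%). Slfn1 there gave 206 CPM in Gata3KO and 295 in Wt (log2 ratio -0.52, -0.88 to -0.18), and Slfn8 gave 81.2 and 139 (-0.77, -1.35 to -0.24). All 5 still had intervals under 0. The Slfn1 interval of cluster 2 lies apart from those of cluster 1 (-2.80 to -1.85) and cluster 3. Of the 6 clusters compared, 2 and 3 were at the ends of the range, with median log2 ratios over the 5 members of -0.52 and -1.94.

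Outside the clusters named as monocytes and macrophages the same 2 genes stood out. In cluster 4, a mixture led by Col1a1 and other collagen genes that also holds cycling cells (87 Gata3KO and 68 Wt cells), Slfn1 gave 18.3 CPM in Gata3KO and 88.9 in Wt, and Slfn4 12.6 and 34.4 (2 of 5 members at least 2-fold lower, background 6.56%). Only 4 Gata3KO and 5 Wt kept cells had 1% or more of their UMIs from fibroblast markers. Most of cluster 4 was therefore not collagen-rich, and whether it holds macrophages was not tested. Cluster 5, led by Cd209a and like type 2 conventional dendritic cells (44 and 103 cells), had no Slfn4 UMI in Gata3KO and 34 in Wt. With 3 counts set as the floor for Gata3KO, Slfn4 was 5.74-fold lower there, a value that leaves out the counting error of the Wt UMIs. The upper end of its exact log2 interval was -2.14. Slfn1 in cluster 5 gave 57.2 CPM in Gata3KO and 244 in Wt, a log2 ratio of -2.09 (-2.74 to -1.5), while the interval of Slfn8 reached 0.03 (2 of 5 members, background 6.74%). Cluster 6, led by Ccl5 and Ccr7, held 10 Gata3KO cells and cluster 7, led by muscle transcripts, held 3, too few for a comparison.

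**Figure D2:**
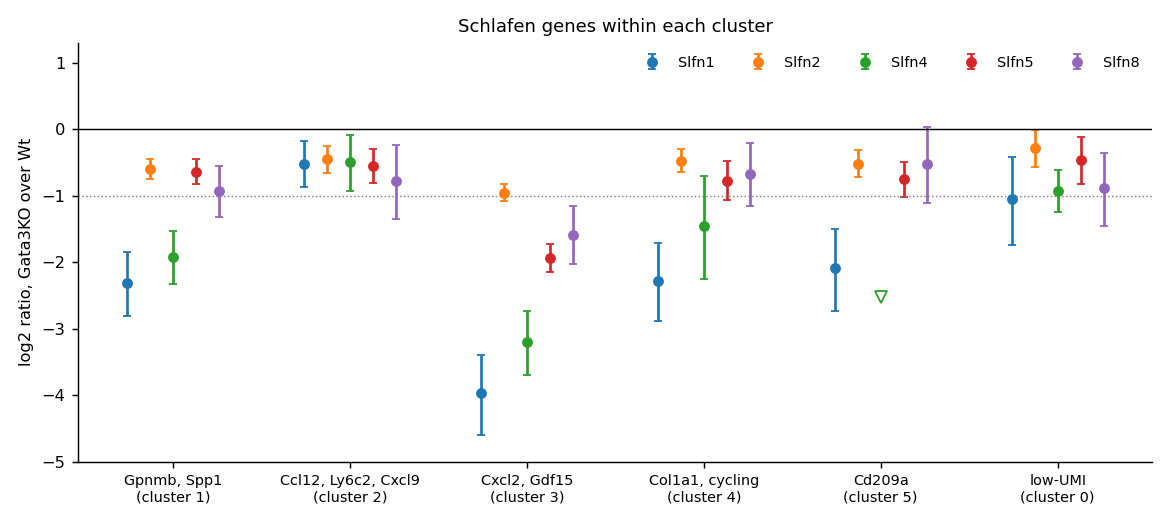
Log2 ratio of Gata3KO over Wt of each member within 6 clusters, with exact 95% counting intervals; the dotted line marks 2-fold lower, and the open triangle is the bound for Slfn4 where Gata3KO had 0 UMIs. Slfn1 runs between -0.52 in cluster 2 and -3.97 in cluster 3, and Slfn2 stays between -0.29 and -0.96.

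The levels themselves ordered the states differently for each member; since the members took part in the clustering, this is a description. Slfn1 was highest in cluster 2 in both libraries, at 206 CPM in Gata3KO and 295 in Wt, and lowest in cluster 3 in Gata3KO (9.93) and in cluster 1 in Wt (78.8). In Gata3KO the fall between cluster 2 and the next cluster, the low-UMI cells at 69.3, was beyond counting error, whereas clusters 4, 1 and 3 (18.3, 15.8 and 9.93) each overlapped the next. Slfn2 varied least: its range over clusters was 254 to 581 in Gata3KO and 386 to 879 in Wt. Slfn5 was highest in clusters 2 and 5, which overlapped, at 360.3 and 341 in Gata3KO and 527 and 576 in Wt, and in Wt cluster 6 stood level with them at 527. Slfn4 and Slfn8 were both highest in the low-UMI cells of cluster 0, described below, where Slfn4 gave 280.0 CPM in Gata3KO and 532 in Wt, beyond the next cluster in each library. Slfn8 there, at 99.8 in Gata3KO and 185 in Wt, overlapped the next cluster in both.

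At a finer resolution cluster 2 divided further. In the state led by Clec4b1, Plac8, Ly6c2 and Ccr2, whose leading genes join monocyte genes with the antigen-presentation genes H2-Eb1, H2-Aa and H2-Ab1, Slfn1 gave 226 CPM in 21 Gata3KO cells and 307 in 110 Wt cells (log2 ratio -0.44, -0.99 to 0.07), and Slfn4 gave 113 and 226 (-1.0, -1.79 to -0.30). In the state led by the interferon-inducible chemokine genes Cxcl9 and Ccl12 there were 12 Gata3KO and 113 Wt cells, and the members were not lower as a set. Slfn1 gave 308 CPM in Gata3KO and 280.4 in Wt (0.14, -0.37 to 0.61). Slfn5 gave 549 and 484 (0.18, -0.19 to 0.54). Slfn4 was higher in these Gata3KO cells, at 286 against 184 in Wt (0.64, 0.10 to 1.14), while Slfn2 (662 and 746) and Slfn8 (128 and 145) had intervals across 0. Interferon-inducible genes lead this state, and the members took part in the clustering. The state therefore describes the few Gata3KO cells placed in it and is no measure of the genotype. The members took part in forming the other clusters and states as well.

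**Figure D3:**
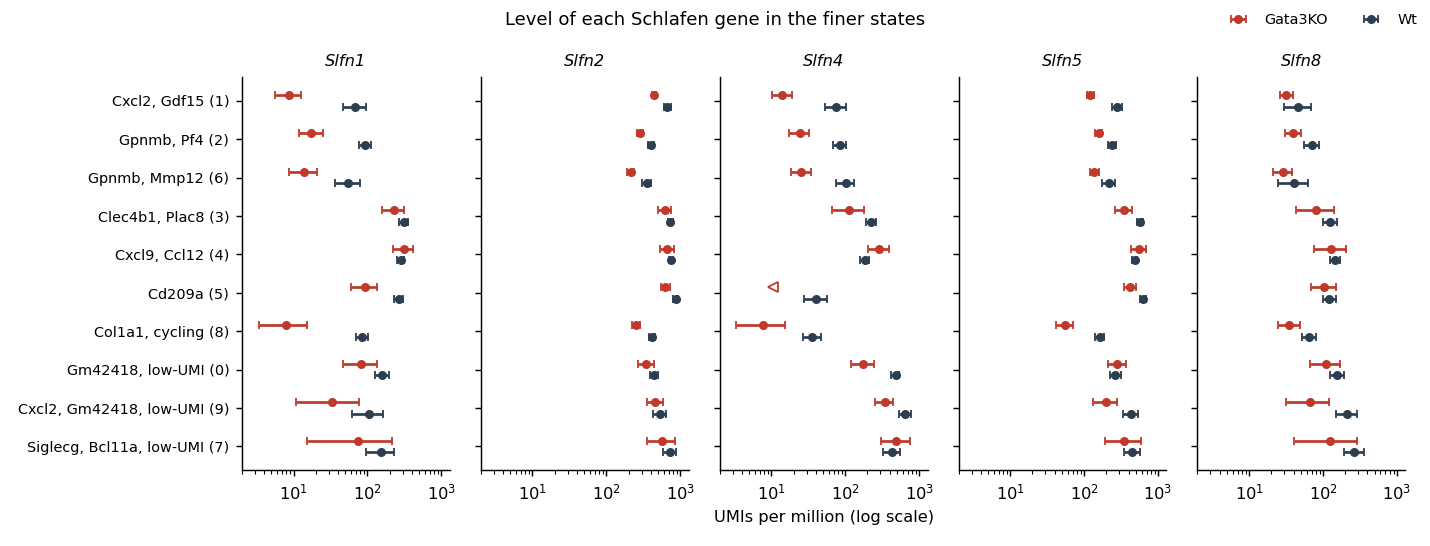
CPM (log axis) of each member in 10 finer states, named by leading genes with the number of the finer state in brackets; Gata3KO (red) is above Wt (dark) in each pair, bars are 95% counting intervals, and the open triangle marks the floor of 3 counts where Gata3KO had no Slfn4 UMI. Slfn1 is 308 in Gata3KO and 280.4 in Wt in the Cxcl9 and Ccl12 state, while in the Cxcl2 and Gdf15 state it is 8.54 in Gata3KO and 67.8 in Wt.

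Shares of cells with a UMI were compared after each cell was thinned to 2000 UMIs, which left 377 of the 403 Gata3KO and 388 of the 409 Wt monocytes and macrophages. Slfn1 was found in 5.57% of Gata3KO cells (3.48 to 8.39) and 31.4% of Wt cells (26.9 to 36.3). Slfn4 was found in 4.51% of Gata3KO cells (2.65 to 7.12) and 20.9% of Wt cells (16.9 to 25.3), and Slfn8 in 7.96% and 21.4%. For Slfn5 the shares were 27.9% in Gata3KO and 50.0% in Wt, and for Slfn2 50.4% and 71.7%. Without thinning the shares of Slfn1 were 17.9% in Gata3KO and 63.1% in Wt, at median depths of 16940 and 8845 UMIs. As a gauge of free RNA, the 29 thinned Wt cells led by muscle transcripts (median 5490.5 UMIs before thinning) had Slfn1 in 20.7% (7.99 to 39.7), Slfn4 in 10.3% (2.19 to 27.4), Slfn8 in 10.3%, Slfn5 in 37.9% and Slfn2 in 44.8%. The Gata3KO shares of Slfn1, Slfn4, Slfn5 and Slfn8 lay below that gauge, so these shares alone are not read as expression. The Wt shares lay above it for all 5 genes, but those of Slfn1, Slfn4, Slfn5 and Slfn8 were inside its interval. The gauge comes from Wt alone, where all 5 genes were higher, since Gata3KO had 3 such cells, and how well it serves for Gata3KO was not tested. Collagen-rich cells, planned as a second gauge, were 4 in Gata3KO and 5 in Wt, too few for shares. Their Wt levels were lower than in the Wt cells led by muscle transcripts: Slfn1 8.21 against 92.8 CPM, Slfn2 90.3 against 422, Slfn4 41.1 against 111, Slfn5 156 against 269 and Slfn8 16.4 against 74.3. In Gata3KO the 3 cells led by muscle transcripts gave Slfn1 0 CPM, Slfn2 162, Slfn4 18.0, Slfn5 72.1 and Slfn8 0. The 4 collagen-rich Gata3KO cells gave Slfn1 0 CPM, Slfn2 46.0, Slfn4 0, Slfn5 156.5 and Slfn8 73.6. Each of these Gata3KO levels rests on at most 18 UMIs. In the Cd209a cluster thinning left too few Slfn4 UMIs to compare shares (0 of 40 Gata3KO cells and 3 of 101 Wt cells). Without thinning, 0 of 44 Gata3KO cells and 17 of 103 Wt cells (16.5%) had one, at median depths of 11061.5 and 8570.0 UMIs.

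Low-UMI cells formed cluster 0, with 103 Gata3KO and 307 Wt cells and medians of 3052 and 2071 UMIs. Their leading genes were Gm42418, Slfn4, Gm26917, Lars2 and AY036118, and the 6 nuclear and debris RNAs took 35.4% of UMIs in Gata3KO and 37.3% in Wt. Macrophage markers were there at a lower level, such as Cd68 at 197 CPM in Gata3KO and 156 in Wt, against 1586 and 1169 in monocytes and macrophages. Of the 10 neutrophil markers 1 reached 20 CPM in each library (Csf3r), and S100a8 was at 0 in both. All 5 Schlafen genes were lower in Gata3KO here too, but by less, and 1 of 5 was at least 2-fold lower where the background was 6.65%. At 1.5-fold it was 3 of 5, where the background was 16%. Over all barcodes of 500 to under 3000 UMIs, with no clustering, 3 of 5 were at least 2-fold lower (background 3.72%). Slfn1 gave 69.3 CPM in Gata3KO (25 UMIs) and 144 in Wt (119 UMIs), a log2 ratio of -1.05 (-1.74 to -0.42). Other marker lists differed between the libraries in these cells as well. Summed levels were 166 CPM in Gata3KO and 419 in Wt for muscle markers, 19.4 and 88.1 for fibroblast markers, 491 and 129 for resident-like macrophage markers, and 3704 and 2161 for lipid-handling macrophage markers. Their part in the result was not tested.

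Slfn4 in low-UMI cells gave 280.0 CPM in Gata3KO (101 UMIs) and 532 in Wt (441 UMIs), a log2 ratio of -0.93 (-1.25 to -0.61). A single cell gave 16.8% of the Gata3KO UMIs. The interval lies apart from the -2.68 to -2.21 of monocytes and macrophages. The log2 ratio was -0.89 (-1.45 to -0.36) for Slfn8, -0.47 (-0.83 to -0.11) for Slfn5 and -0.29 (-0.57 to -0.01) for Slfn2. Within each library Slfn4 was higher in low-UMI cells than in monocytes and macrophages, 10.1-fold in Gata3KO (log2 3.33, 2.97 to 3.69) and 3.52-fold in Wt (1.82, 1.64 to 1.99). Slfn8 was 2.76-fold higher in Gata3KO and 1.78-fold higher in Wt. For the other members the libraries differed in direction: Slfn1 was 2.88-fold in Gata3KO and 0.766-fold in Wt, Slfn5 1.60-fold and 0.818-fold, and Slfn2 1.11-fold (interval across 1) and 0.754-fold. Of the UMIs of the 5 members, Slfn4 took 25.8% in Gata3KO and 31.7% in Wt low-UMI cells, and 4.66% and 10.1% in monocytes and macrophages. Slfn4 leads this cluster and helped to form it. When Schlafen and interferon genes were left out of the clustering, the clusters led by nuclear and debris RNAs (81 Gata3KO and 228 Wt cells) gave Slfn4 at 273 CPM in Gata3KO and 546 in Wt, a definition chosen after the data were seen. By the rule of the lowest median UMIs, that clustering picked another cluster with 16 Gata3KO cells, where 0 of 5 members were at least 2-fold lower and the log2 ratio was reversed to 0.65 for Slfn4 and 0.20 for Slfn5. Slfn4 was also reversed at resolution 1.2 (0.21, 19 Gata3KO cells) and without the cells called by Scrublet (0.26, 18 Gata3KO cells). At resolution 1.2 a single cell gave most of the Gata3KO Slfn4 UMIs. In the larger clusters picked by the same rule Slfn4 was lower in Gata3KO. Its log2 ratio was -1.67 with every barcode reclustered, -1.65 at up to 20% mitochondrial and -1.01 at resolution 0.3. The reversals were thus in clusters of few Gata3KO cells, where its direction between the libraries is uncertain.

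The same pattern appeared without any clustering, when every barcode was placed in a bin of its own UMI total. Slfn4 in Gata3KO gave 231 CPM in barcodes of 500 to under 2000 UMIs, 134.5 at 2000 to under 5000, 55.9 at 5000 to under 15000 and 17.9 at 15000 or more. In Wt the series was 556, 294, 151 and 59.8. The lowest bin was thus 12.9-fold above the highest in Gata3KO (log2 3.69, 3.39 to 4.00) and 9.30-fold above it in Wt (3.22, 3.01 to 3.43). Slfn8 went the same way, with a 3.65-fold gap in Gata3KO and 2.99-fold in Wt. For Slfn2 and Slfn5 the gap was at most 1.49-fold in either library, and for Slfn1 it was 2.78-fold in Gata3KO and 1.10-fold in Wt.

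The mitochondrial share also changed over these bins, with medians of 23.2%, 25.1%, 14.3% and 4.31% in Gata3KO and 19.5%, 18.7%, 7.97% and 4.55% in Wt. Among kept cells alone, all at or under 10% mitochondrial, the Slfn4 gap was 10.1-fold in Gata3KO and 12.8-fold in Wt. In Gata3KO the second bin was the highest of the kept cells there (161, 286, 54.0 and 16.1 CPM), with overlapping intervals in the first and second bins. Within Wt monocytes and macrophages the gap was 9.65-fold (log2 3.27, 2.55 to 3.92), with 22 UMIs in 21 cells of the lowest bin. In Gata3KO monocytes and macrophages the lowest bin held 3 Slfn4 UMIs in 26 cells, and the interval reached under 0. Nuclear and debris RNAs lower the CPM of every other gene where they are abundant. With those RNAs left out of the totals, Slfn4 was 15.1-fold higher in low-UMI cells than in monocytes and macrophages in Gata3KO and 5.30-fold higher in Wt. Under that scaling Slfn1, Slfn5 and Slfn2 were higher in low-UMI cells in Wt too, at 1.15-fold, 1.23-fold and 1.13-fold, so their direction in Wt turned with the scaling. In Gata3KO they stood at 4.32-fold, 2.40-fold and 1.66-fold, and Slfn8 at 4.13-fold in Gata3KO and 2.68-fold in Wt.

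**Figure D4:**
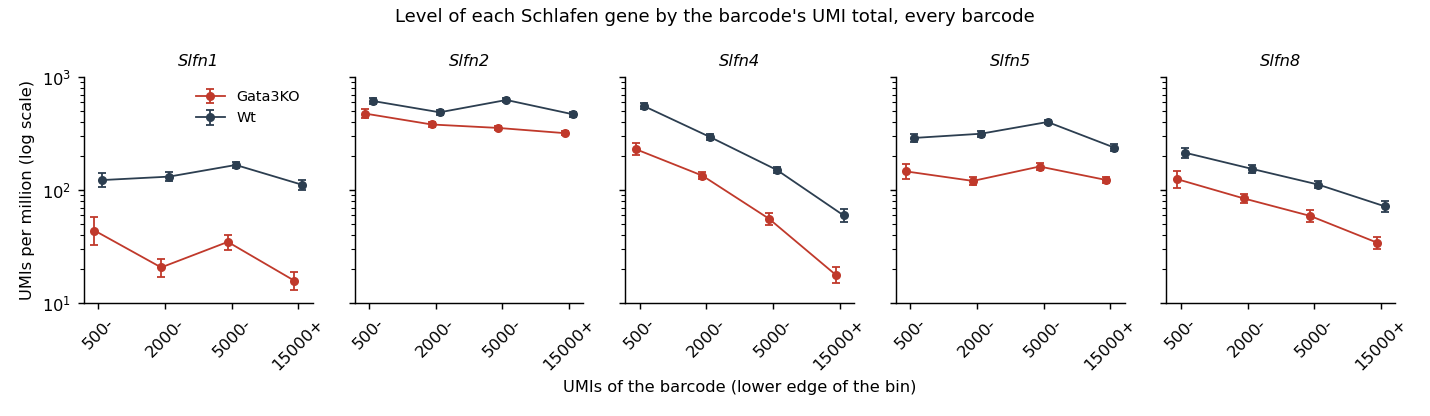
CPM (log axis) of each member over all barcodes, in 4 bins of the barcode's UMI total, for Gata3KO (red) and Wt (dark), with 95% counting intervals. Slfn4 falls over the bins to 17.9 in Gata3KO and 59.8 in Wt and Slfn8 falls less steeply, while Gata3KO stays under Wt in every bin for all 5 genes.

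In each of these bins all 5 members were lower in Gata3KO with an interval under 0. The number at least 2-fold lower was 2 of 5 under 2000 UMIs (background 3.84%), and 3 of 5 in each bin above it (3.87%, 4.52% and 5.55%). Over every barcode it was 4 of 5, where the background was 4.13%, with Slfn1 at 23.6 CPM in Gata3KO and 139 in Wt (log2 ratio -2.56, -2.71 to -2.41) and Slfn4 at 73.5 and 208.5 (-1.5, -1.60 to -1.41). At 1.5-fold all 5 were lower over every barcode (background 7.23%). By mitochondrial share the count was 4 of 5 up to 10% (5.04%), 3 of 5 at 10 to 20% (3.59%) and 3 of 5 over 20% (3.35%). Slfn1 was lower by more than 2-fold in each of those bins, with log2 ratios of -2.71 (-2.91 to -2.51), -2.14 (-2.45 to -1.83) and -2.21 (-2.56 to -1.88). For Slfn4 the log2 ratios were -2.22 (-2.40 to -2.04), -1.41 and -1.05 (-1.20 to -0.90) over the same bins.

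Beside the Schlafen genes, interferon-inducible genes were lower in the same Gata3KO monocytes and macrophages. The lists were chosen with earlier results of these data known, so their counts are a description and no independent check. Of the 40 measured genes of the type I interferon list, 39 were at least 2-fold lower, with a median log2 ratio of -2.01, where the background was 4.01% of all genes. The lowest were Ifit1bl1 (-3.73) and Ifi205 (-3.52), and the highest were Trim30a (-1.07) and the RNA sensor gene Oas1a (-0.81). Of the 17 measured genes of the interferon gamma list all 17 were at least 2-fold lower, with a median of -2.39, between Cxcl9 (-4.64) and Serpina3g (-4.48) at one end and Irf1 (-1.32) and Fcgr4 (-1.03) at the other. The list of regulators and receptors gave 3 of 19, with a median of -0.14. In it Stat2 (-2.30) was lowest, and Tlr4 (0.37) and Socs3 (0.74) were highest. The receptor genes Ifnar1 (-0.42), Ifnar2 (0.18) and Ifngr1 (0.02) and the Stat2 partner Irf9 (-0.76) stayed inside 2-fold, while Irf7, counted in the type I list, had -2.40. The Schlafen members, with a median of -1.52 and a range of -2.96 to -0.84, lay within the range of the type I list, -3.73 to -0.81. By cluster, 10 of 41 type I genes and 12 of 17 interferon gamma genes were at least 2-fold lower in cluster 2 (medians -0.64 and -1.23). The background there was 5.92%, and 0 of 5 Schlafen genes were past that limit. In cluster 1 (background 1.87%), beside 2 of 5 Schlafen genes, the counts were 28 of 38 and 9 of 12. In cluster 3 (background 5.63%), beside 4 of 5, they were 38 of 40 and 15 of 16.

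**Figure D5:**
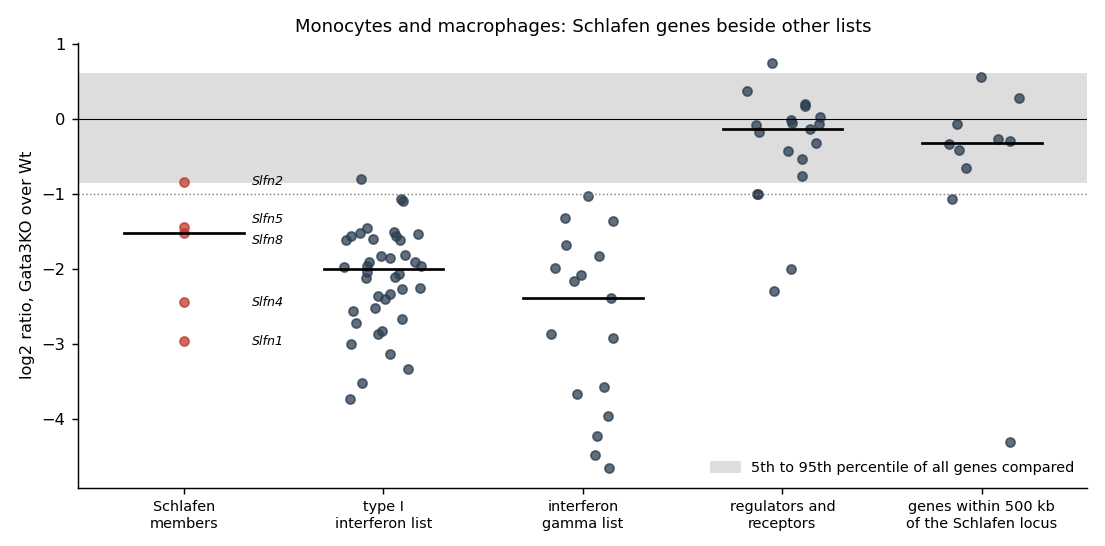
Log2 ratio of Gata3KO over Wt in monocytes and macrophages for the 5 Schlafen genes (red) and the measured genes of 3 interferon lists and of the chromosome 11 neighbourhood (dark), 1 point a gene, black bars at the medians, the grey band holding the 5th to 95th percentile of all 5890 genes, and the dotted line at 2-fold lower. The Schlafen median is -1.52, between the type I list at -2.01 and the neighbours at -0.32.

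The genes around the locus varied in direction. Of 61 annotated genes without a Schlafen name within 500 kb of the outermost family genes, 10 were measured in monocytes and macrophages, and 2 were at least 2-fold lower, where the background was 4.01%. These were the chemokine genes Ccl5, at 8.84 CPM in Gata3KO and 175 in Wt (log2 ratio -4.31, -4.71 to -3.93), and Ccl9, at 181 and 382 (-1.08, -1.18 to -0.97). The other 8 lay between -0.65 and 0.56, and the median of the 10 was -0.32. Over every barcode Ccl3, a chemokine gene, was at least 2-fold higher in Gata3KO, at 342.5 CPM against 152.5 in Wt (log2 ratio 1.17, 1.10 to 1.24), and Ccl5 was the 1 gene at least 2-fold lower.

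The genes whose levels were most like those of the members over 14 units of cluster and library, among 3086 candidates, are a description of units that share libraries and depth. Slfn1 was nearest to Oasl2 (Pearson r = 0.959), Ifi213 (0.956) and Mndal (0.95), Slfn5 to Ifi209 (0.981), Samhd1 (0.958) and Sp110 (0.947), and Slfn8 to Mndal (0.952), Ifi213 (0.946) and Parp14 (0.936). Slfn2 was nearest to Isg20 (0.901), Ifi205 (0.9) and Ifit1 (0.889). Slfn4 had other neighbours, Trip12 (0.914), Lacc1 (0.892) and Prkcd (0.866), and its r with the other 4 members was between 0.192 and 0.549. Among Slfn1, Slfn2, Slfn5 and Slfn8 r was between 0.662 and 0.887.

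Of the rest of the family, Slfn9, a long gene next to Slfn8, gave 9.71 CPM in Gata3KO and 38.8 in Wt monocytes and macrophages (log2 ratio -2.0, -2.43 to -1.58), and Slfn3 gave 6 and 14 UMIs. Slfn10-ps, Slfn14, Slfn5os and Slfnl1 were not analysed here. Reads are counted at transcript ends, and near-identical copies can share them. In GENCODE transcripts none of the 451 windows of 50 bases in the last 500 bases of a coding Slfn1, Slfn2, Slfn4 or Slfn5 transcript occurred in another family gene, but 3.1% to 41.5% of those of Slfn8 transcripts did, in Slfn9 or the pseudogene Slfn10-ps. The split of reads between Slfn8 and Slfn9 is therefore uncertain, and their promoters were also 80.8% identical when aligned. Slfn5os overlaps Slfn5 on the opposite strand, and whether reads were assigned by strand is not given in the sources used here.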

How the data were processed

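The deposited tables give UMI counts per gene and barcode, whole numbers that the authors had not normalized, 1 table per library. Per the labels' protocols, each 10x Genomics 3′ v3 library was loaded with 8000 cells. The build mm10, R 3.6.1, Seurat 3.0.2 and Cell Ranger 3.0.1 are named in the submitters' processing notes, and settings and cell filters were not given in the sources used. Each listed gene had a UMI in at least 5 cells.

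Kept cells were scaled to 10000, log-transformed and clustered on 2000 variable genes, 30 principal components and 15 neighbours with Leiden at resolution 0.6, and 1.2 for finer states (scanpy 1.11.5, scikit-learn 1.9.0, leidenalg 0.10.2, igraph 0.11.9, Python 3.11.15). Libraries were not integrated. A marker list named a cluster with at least 3 markers at 20 CPM and 1 among its 10 leading genes, a rule set after the data were seen. By the mean z-score of each list's markers alone, without that rule, the top list was B cell for cluster 2 and neutrophil for cluster 3. For cluster 5 it was mast cell, basophil and eosinophil. The low-UMI cluster is the one with the lowest median UMIs among those of at least 100 cells. Scrublet called 4 of 650 Gata3KO cells (0.615%) and 0 of 990 Wt cells, too few in Wt to show that it worked; they were left in. UMIs were summed per library and expressed as UMIs per 1000000 (CPM). Genes compared were in both tables, at 20 or more CPM in 1 library and 20 or more UMIs over both. Ratios have exact conditional binomial intervals, levels exact Poisson and shares exact Clopper-Pearson intervals (scipy 1.17.1). No p-value is given, because each genotype had 1 library. The ratio step was tested on simulated data with known changes. Alternatives were other cell filters, resolutions, scalings, thinning and definitions of low-UMI cells. The members, gene lists and marker lists were chosen with earlier results of these data known. Named genes are the members, the 3 most alike each, the 2 highest and lowest of each interferon list, fixed pathway genes and neighbours past 2-fold. A result for 1 gene that this rule names is not reported here.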

Additional observations from a re-analysis of the deposited data

How the results depend on the processing

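In monocytes and macrophages all 5 members stayed lower in Gata3KO under each of 15 alternatives, with log2 ratios of -3.25 to -2.20 for Slfn1, -2.57 to -1.39 for Slfn4, -1.48 to -1.04 for Slfn5, -1.56 to -0.95 for Slfn8 and -0.89 to -0.67 for Slfn2. The lowest size for Slfn4, -1.39, and for Slfn8, -0.95, came with every barcode reclustered. The number at least 2-fold lower was 3 with every barcode reclustered, 5 at 1.5-fold and 4 in all others, including cluster shares held equal, cluster 2 left out (chosen after seeing the data) and Schlafen and interferon genes left out of the clustering. The share of all genes lower by the same limit was 4.01% in the main setting and 7.95% at 1.5-fold, and it is not given for most other alternatives. The number of genes of the 3 interferon lists past the limit was 51 to 62, the 62 at 1.5-fold. It was 59 in the main setting, where 40, 17 and 19 genes of the lists were measured. Over every barcode the number of members was within 3 to 5, except 2 under 2000 UMIs.

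Low-UMI cells depended on their definition. Against 1 of 5, the number at least 2-fold lower was 4 with every barcode reclustered, 3 at up to 20% mitochondrial, at resolution 0.3, with every cell weighted alike, at 1.5-fold and in cells of 500 to under 3000 UMIs without clustering, 2 at resolution 1.2 and with thinning to 2000 UMIs, and 0 with Schlafen and interferon genes left out of the clustering. With all clusters led by nuclear and debris RNAs taken as low-UMI cells, chosen after seeing the data, it was 1 at resolution 1.2, 2 at up to 20% mitochondrial and 3 with those genes left out. The share of all genes at least 2-fold lower was 6.65% in the main definition and 3.72% in cells of 500 to under 3000 UMIs. At 1.5-fold in the main definition it was 16%. For the other settings it is not given, so those counts have no background. In some settings the lowest median belonged to another cluster, with Bcl11a and Ctnnd2 among its 5 leading genes. In 3 of these it held 16 to 19 Gata3KO cells and Slfn4 was reversed: 0.26 without Scrublet-called cells, 0.21 at resolution 1.2 (where 1 cell gave 85.0% of the Gata3KO UMIs) and 0.65 with the genes left out. Slfn5 was reversed at 0.20 with the genes left out and at 0.080 in the clusters led by nuclear and debris RNAs at resolution 1.2. At 1000 UMIs and 5% mitochondrial no low-UMI cluster was left, and a 1.5-fold limit leaves each log2 ratio as it is. Spread between mice is unknown, so intervals cover counting error alone, and a ratio whose interval spans 0 is not shown to be absent. No paired analysis was possible because each genotype had 1 library.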

Other observations

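Slfn4 in the low-UMI cells led by Siglecg, Bcl11a and Kctd14, with 19 Gata3KO and 85 Wt cells, gave 494 CPM in Gata3KO (20 UMIs) and 426 in Wt (64 UMIs). In Gata3KO 3 of the 19 cells had a Slfn4 UMI and 1 of them gave 85.0% of the UMIs, so the Gata3KO level rests on that cell. In Wt 22 of the 85 cells had one. In the Cd209a-led cells of the same resolution, with medians of 10408 UMIs in Gata3KO and 8489 in Wt, it gave 0 CPM in Gata3KO and 40.2 in Wt. In the low-UMI cells led by Gm42418, Gm26917 and Lars2 it gave 175 in Gata3KO and 479 in Wt, in those led by Cxcl2, F10 and Ifrd1 it gave 343 and 643, and in the Cxcl2 and Gdf15 state 14.1 and 75.6. In Wt the level in each of these 3 low-UMI states was above that of the Cd209a and the Cxcl2 and Gdf15 states, and in Gata3KO this held for the states led by Gm42418 and by Cxcl2 and F10.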
